A study of Mus musculus with 20 samples.

Results

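The Fc receptor genes of mouse microglia were described across 6 conditions of genotype and cell sort. They comprised Fcgr1, Fcgr3, Fcgr4, Fcer1g, Fcgr2b and Fcgrt, taken by symbol from the deposited tables. These were 6 of 21315 gene symbols listed, and all 6 were measured in all 20 libraries and passed the filter on low values in every comparison.

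Fc receptors bind the constant part of antibodies and so couple immunoglobulin G on a particle or plaque to the cell that meets it. Activating receptors do not signal alone but through an associated chain that carries an immunoreceptor tyrosine-based activation motif (ITAM), whose phosphorylated tyrosines recruit the kinase Syk and lead to phagocytosis and cytokine release. The inhibitory receptor carries a tyrosine-based inhibition motif (ITIM) that recruits phosphatases, and the balance of the 2 kinds sets the threshold of the response. In the brain, microglia and border macrophages are the main cells with the activating and inhibitory receptors.

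Fcgr1 encodes Fc gamma RI (CD64), the high-affinity receptor for immunoglobulin G. Fcgr3 encodes Fc gamma RIII (CD16), a low-affinity activating receptor, and Fcgr4 encodes Fc gamma RIV, an activating receptor of intermediate affinity. Fcer1g encodes the common gamma chain, the ITAM-bearing subunit on which the 3 activating receptors depend. Fcgr2b encodes Fc gamma RIIb (CD32), the inhibitory receptor. Fcgrt encodes the heavy chain of the neonatal Fc receptor (FcRn), which pairs with beta-2-microglobulin in endosomes and recycles immunoglobulin G and albumin.

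RNA was sequenced from brain microglia of C57BL/6 mice at 9 months of age. Cells sorted for C3aR, the receptor of the complement fragment C3a, gave 3 libraries from WT and 3 from APP-KI mice. Both of these groups carried the Td-tomato reporter at the C3ar1 locus of a C3ar1 fl/fl line, without a Cre driver in the labels. Microglia sorted with no C3aR gate gave 3 libraries from WT, 3 from C3aR-KO (C3aRKO in the labels) and 3 from APP-KI mice. A further 5 libraries came from mice with both alleles, APP-KI;C3aR-KO. APP-KI stands for the APP NL-G-F knock-in, a humanized App gene with the Swedish, Iberian and Arctic mutations expressed from its own locus in every cell that uses it, and C3aR-KO is a deletion present in all cells from birth. According to the methods, cells were gated on CD45 and CD11b, and male and female mice were both used. Before staining, cells of every group were treated with Fc Block, an antibody to the proteins made by Fcgr3 and Fcgr2b, which the RNA counts do not read. Nothing in the labels ties a library to a separate mouse, so the p-values measure the spread between these libraries only.

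Sequences of 3 stretches are shown because they carry the function of the family or limit its measurement. The first is the coding strand of the ITAM of Fcer1g (GRCm38, minus strand, chr1:171230067-171230072 in exon 4 and chr1:171229889-171229927 in exon 5 of 5), with the codons of its tyrosines in capitals. It was found in 2 of 2 coding transcripts.
Fcer1g ITAM: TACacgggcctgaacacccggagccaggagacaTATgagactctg
The second is the ITIM of Fcgr2b (minus strand, chr1:170961071-170961088, exon 8 of 8), again with the tyrosine codon in capitals, present in 4 of 4 coding transcripts.
Fcgr2b ITIM: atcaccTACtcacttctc
The third is the longest coding run that Fcgr2b and Fcgr3 have in common, 129 bases of their extracellular parts. It lies on the minus strand at chr1:170967980-170968081 (exon 3) and chr1:170966674-170966700 (exon 4) in Fcgr2b, and at chr1:171057691-171057792 (exon 3) and chr1:171054167-171054193 (exon 4) in Fcgr3.
Fcgr2b and Fcgr3, shared: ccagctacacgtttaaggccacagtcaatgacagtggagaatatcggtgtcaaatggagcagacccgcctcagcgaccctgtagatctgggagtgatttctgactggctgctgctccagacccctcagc

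A read inside that run could not be assigned to 1 of the genes, and how such reads were counted is not given in the sources used here, so the counts of both genes are uncertain to that extent. Of the 1733 words of 50 bases in the exons of Fcgr3, 166 (9.58%) also occurred in Fcgr2b. Of the 5685 in Fcgr2b, 395 (6.95%) occurred in another gene. No such word of Fcgr1, Fcgr4, Fcer1g or Fcgrt occurred in the exons of another gene. Fcgr2b also overlaps an antisense gene, Gm38204, over 155 exonic bases, and how reads were assigned by strand is not given in the sources used here.

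The positions of the genes put most of the family on chromosome 1. In GRCm38 (mm10), Fcgr2b lies at chr1:170958617-170976547 on the minus strand, Fcgr4 at chr1:171018920-171029761 on the plus strand, Fcgr3 at chr1:171051174-171064935 and Fcer1g at chr1:171229572-171234365, both on the minus strand. The high-affinity receptor Fcgr1 lies at chr3:96282909-96293969 and Fcgrt at chr7:45092990-45103851, both on the minus strand. All 6 are protein-coding. The exonic lengths used below cover all annotated exons, and which exons the deposited counts cover was not checked.

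Library depth ran from 13939559 to 30388941 reads for the C3aR+ libraries and from 42239056 to 76608464 for the others. Values below are scaled values, a read count divided by the 75th percentile of its library and multiplied by 35.1, without division by gene length. Genes above 0 numbered between 12387 and 21219, and 4 libraries held fewer than 14000 of them (APP-KI replicate 4, C3aR-KO replicates 1 and 2, and APP-KI;C3aR-KO replicate 1). Values without them are given beside the results they moved most.

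The targeted gene C3ar1, which checks the labels, ran from 39.8 to 68.0 in C3aR-KO and from 61.7 to 80.2 in APP-KI;C3aR-KO, against 275 to 339 in WT. The 3 libraries labelled C3aR+ WT held C3ar1 at 70.8, 81.0 and 37.5, near the range of the knockout libraries (1 inside it, 1 just above and 1 just below), whereas those labelled C3aR+ APP-KI held 382, 251 and 201. The C3aR+ WT label therefore goes against the C3ar1 RNA, and C3aR+ WT is used below as the name of the label only. App itself, the gene of the knock-in, was 1.64-fold higher in C3aR+ APP-KI than in C3aR+ WT (adjusted p = 0.0059, limma) and at a log2 difference of -0.13 without the gate (adjusted p = 0.967), which does not tell the humanized from the mouse allele.

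Microglial identity was clear in all libraries. The 8 microglial markers summed to between 9387 and 30372, and the 7 markers of border macrophages to between 179 and 1200. Mast cell markers, whose cells carry Fcer1g in the immunoglobulin E receptor, summed to between 0 and 10.4. Fcer1a and Ms4a2, the other chains of that receptor, were at 0 in 15 and 14 of the 20 libraries. In bulk samples such as these, fewer cells of a type and less RNA per cell cannot be told apart.

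All 6 Fc receptor genes were expressed, at very different levels per length. Per kilobase of exon, the median scaled value over the 20 libraries was highest for the activating receptor Fcgr3 (488), followed by its signalling chain Fcer1g (322), Fcgr1 (112), the inhibitory Fcgr2b (63.0), Fcgrt (34.1) and Fcgr4 (9.90). The order was the same with the length of the longest coding transcript. Fcgr4 rested on 58 to 1214 reads per library and had the widest range, with 22.0-fold between the highest and the lowest library, against 2.78-fold for Fcgr3, 2.93-fold for Fcgr1, 3.18-fold for Fcgr2b, 3.55-fold for Fcer1g and 5.60-fold for Fcgrt.

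**Figure D1:**
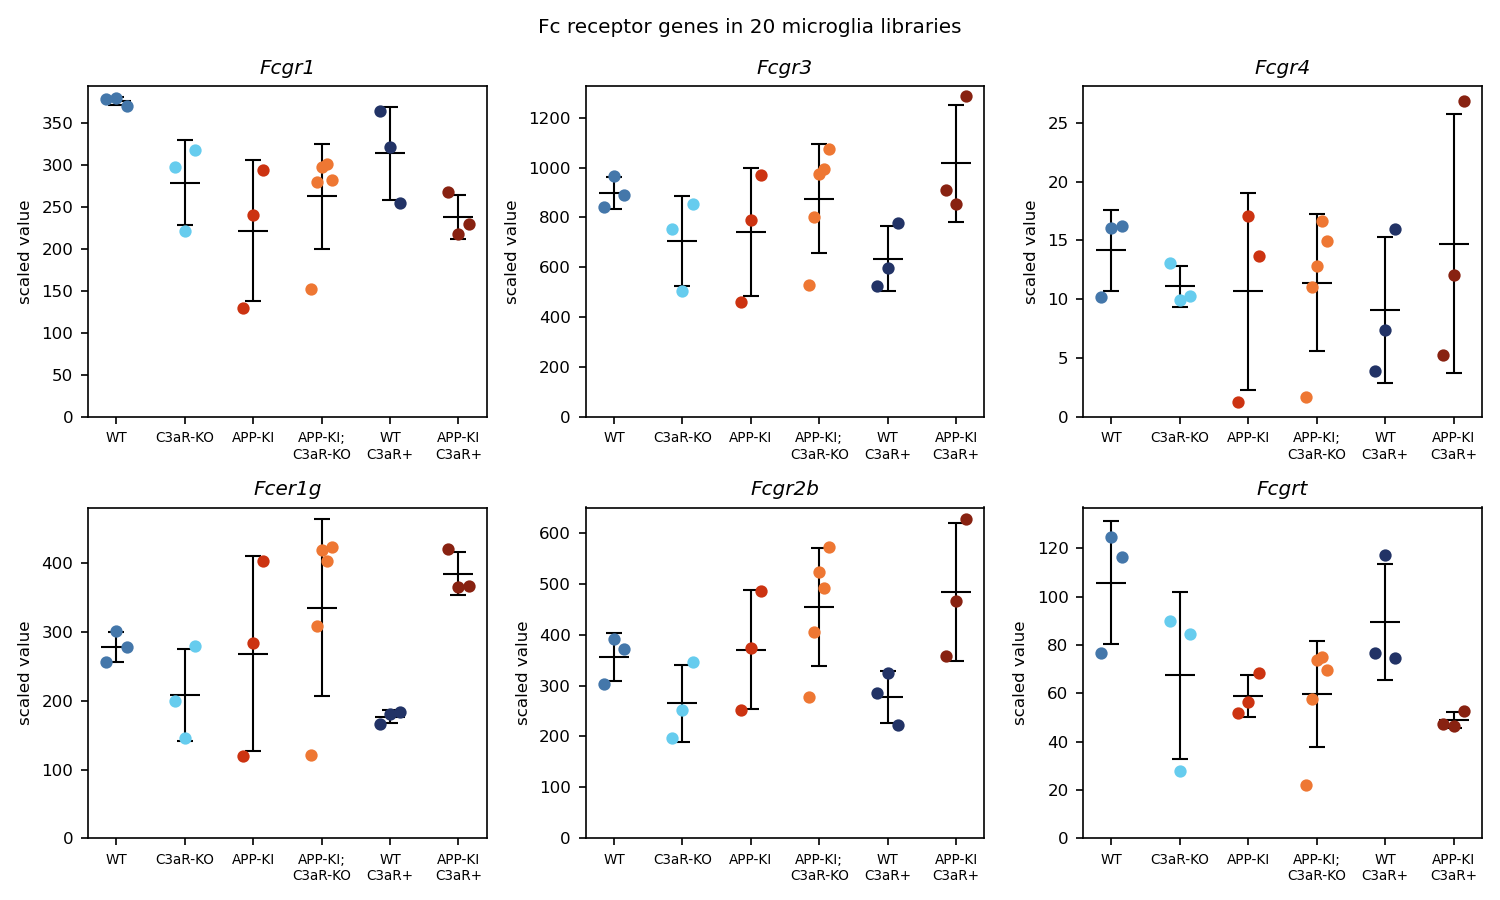
Scaled value (vertical axis, from 0, without division by length) of each Fc receptor gene in each of the 20 libraries, by condition, with a black dash at the group mean and error bars of 1 SD. Fcgr1 is highest in the 3 WT libraries (371 to 381), and the C3aR+ APP-KI libraries lie above the C3aR+ WT libraries for Fcgr3, Fcer1g and Fcgr2b and below them for Fcgrt.

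The order of the 6 conditions differed from gene to gene. Fcgr1 was highest in WT, with 377 ± 5.33 (SD, n = 3), and lowest in APP-KI, with 222 ± 84.0 (SD, n = 3). Fcer1g, Fcgr3 and Fcgr4 were highest in C3aR+ APP-KI and lowest in C3aR+ WT, at 385 ± 31.6 against 177 ± 9.11 for Fcer1g (SD, n = 3 each). Fcgr2b was also highest in C3aR+ APP-KI (483 ± 136, SD, n = 3) and was lowest in C3aR-KO (265 ± 75.1, SD, n = 3), while Fcgrt was highest in WT (106 ± 25.6, SD, n = 3) and lowest in C3aR+ APP-KI (48.8 ± 3.33, SD, n = 3). Among neighbours in these orders, only WT and C3aR+ WT for Fcgr1 did not overlap. All other neighbours in the 6 orders had overlapping libraries.

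The first comparison asked how the APP knock-in, which brings amyloid plaques, changes these genes in C3aR+ microglia. In these cells the inhibitory receptor, the common signalling chain and Fcgr3 were higher in APP-KI than in WT, by 1.71-, 2.16- and 1.60-fold, and Fcgrt was lower, at 0.562 of WT. Fcgr1 and Fcgr4 did not pass the test. Thus 3 of the 6 genes were called higher and 1 lower at an adjusted p under 0.05, in a comparison in which 22.7% of all 12314 genes tested were called (13% higher and 9.7% lower). The median log2 difference was 0.62 over the 6 genes and -0.17 over all genes tested. With median ratio scaling the median of all genes was -0.03 and the split of calls went from 1602 higher and 1195 lower to 1844 and 605, and the same 4 members were called in the same directions. C3ar1 itself was 4.41-fold higher (adjusted p = 0.001, limma), so this contrast also compares libraries at knockout-like and at WT-like C3ar1 RNA.

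Among the activating receptors, Fcgr3 was at 526, 596 and 779 in the C3aR+ WT libraries and at 910.3, 855 and 1286 in the C3aR+ APP-KI libraries. All 3 APP-KI libraries lay above all 3 WT libraries, as was the case for 17.8% of all genes. The log2 difference was 0.68 (SE 0.19, 95% interval 0.25 to 1.11, adjusted p = 0.0315). The call was lost without C3aR+ WT replicate 1 (adjusted p = 0.112), C3aR+ WT replicate 2 (0.0978) or C3aR+ APP-KI replicate 3 (0.0641), and without the filter on low values (0.101).

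The high-affinity receptor Fcgr1 did not follow Fcgr3. Its values were 365, 322 and 255 in C3aR+ WT and 268, 218 and 229.7 in C3aR+ APP-KI, with 1 WT library inside the APP-KI range. The log2 difference was -0.39 (SE 0.15, 95% interval -0.72 to -0.05, adjusted p = 0.0889), and it passed the threshold only without C3aR+ WT replicate 3 (log2 difference -0.53, adjusted p = 0.0436).

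Fcgr4 could not be resolved in these cells. Its values were 3.88, 7.41 and 16.0 in C3aR+ WT and 5.26, 12.1 and 26.8 in C3aR+ APP-KI, from 102 to 450 reads. The spread within each group was larger than the difference between them (log2 difference 0.57, 95% interval -0.78 to 1.92, adjusted p = 0.506).

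Fcer1g, the chain that carries the ITAM printed above, gave the clearest difference of the family. It was at 167, 182 and 183 in the C3aR+ WT libraries and at 421, 366 and 367 in the C3aR+ APP-KI libraries. The groups were far apart and each was narrow. The log2 difference was 1.11 (SE 0.11, 95% interval 0.87 to 1.36, adjusted p = 0.000195), and it passed the threshold in every alternative run.

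The inhibitory Fcgr2b rose too. It was at 286, 324 and 223 in C3aR+ WT and at 357, 466 and 628 in C3aR+ APP-KI, and the groups did not overlap. The log2 difference was 0.78 (SE 0.21, 95% interval 0.31 to 1.24, adjusted p = 0.0243). The call was lost without C3aR+ WT replicate 1 (adjusted p = 0.0563), C3aR+ WT replicate 3 (0.0912), C3aR+ APP-KI replicate 2 (0.0608) or C3aR+ APP-KI replicate 3 (0.0533), and without the filter (0.0853).

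Fcgrt fell. This recycling receptor was at 76.7, 117 and 74.4 in C3aR+ WT and at 47.2, 46.7 and 52.7 in C3aR+ APP-KI, with every APP-KI library below every WT library, as for 25.7% of all genes. The log2 difference was -0.83 (SE 0.19, 95% interval -1.25 to -0.41, adjusted p = 0.0115), and it passed the threshold in every alternative run. Its partner beta-2-microglobulin, encoded by B2m, went the opposite way, with 2.99-fold more in APP-KI (log2 difference 1.58, adjusted p = 0.00102).

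The sums of several marker lists moved in the same comparison. The 8 microglial markers summed to between 24868 and 26195 in C3aR+ WT and to between 16993 and 18910 in C3aR+ APP-KI, and those of border macrophages to between 478 and 705 against between 179 and 401. The endothelial markers summed to between 46.2 and 92.3 in C3aR+ WT and to between 170.3 and 325 in C3aR+ APP-KI, those of oligodendrocytes to between 139 and 187 against between 192 and 212, and those of astrocytes to between 301 and 399 against between 218 and 276. None of these 5 pairs of ranges overlaps, whereas the ranges of the other 5 marker lists did. Of the 6 endothelial markers, 5 had a mean of at least 1 in C3aR+ WT and 3 in C3aR+ APP-KI. The endothelial sum thus rose while fewer of its genes reached that mean. The part of other cells in the differences of the Fc receptor genes was not tested.

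**Figure D2:**
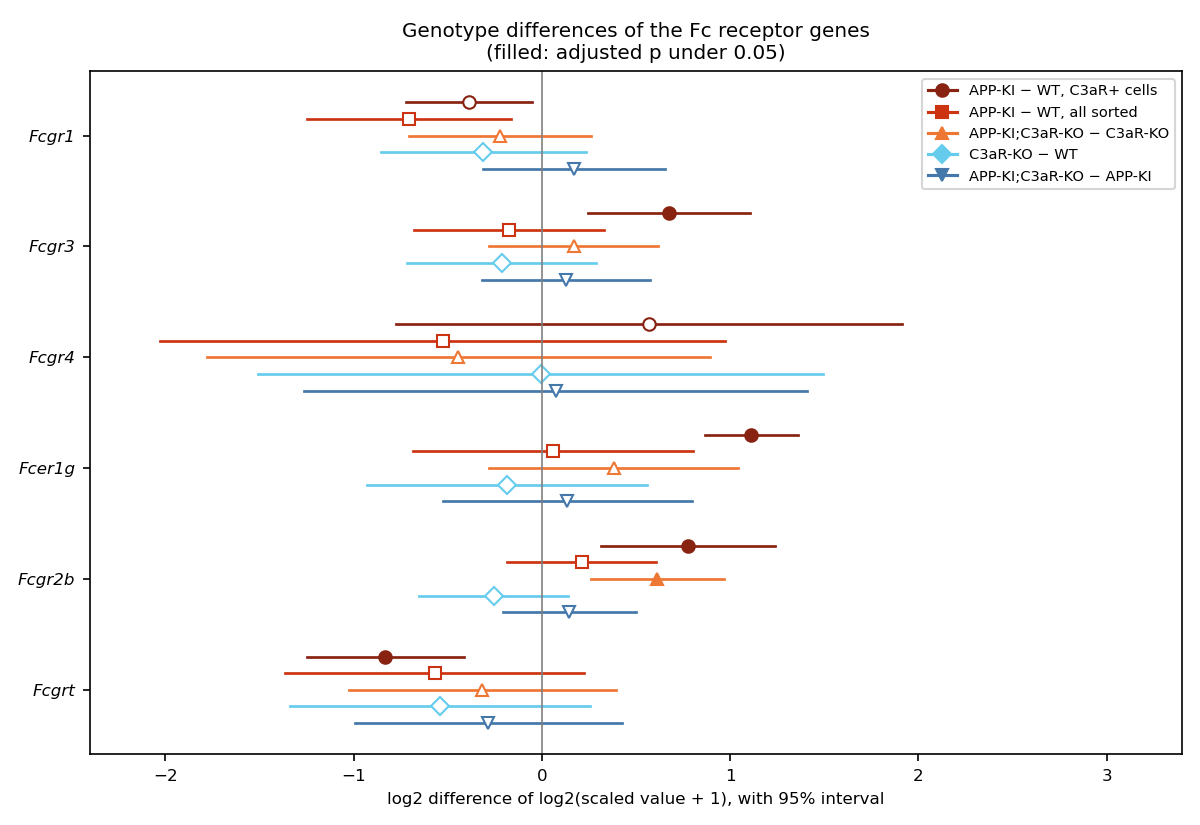
Log2 difference (horizontal axis, on the scale of log2 of the scaled value plus 1) with its 95% interval for each Fc receptor gene in 5 genotype comparisons; filled symbols have an adjusted p under 0.05. In C3aR+ cells Fcgr3, Fcer1g and Fcgr2b lie to the right and Fcgrt to the left of 0, and outside them only Fcgr2b in APP-KI;C3aR-KO against C3aR-KO is filled.

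The same question in microglia sorted without the C3aR gate gave no call for any of the 6 genes, in a comparison that called 4.14% of 12405 genes. Fcgr1 came nearest. It was at 379, 381 and 371 in WT and at 130.1, 241 and 295 in APP-KI, so that every APP-KI library lay below the narrow WT group, as for 16.4% of all genes. The log2 difference was -0.71 (SE 0.25, 95% interval -1.25 to -0.16) with an unadjusted p of 0.0145 and an adjusted p of 0.188 (limma).

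Fcgrt was the other gene whose groups did not overlap. It was at 76.7, 125 and 116 in WT and at 51.8, 56.4 and 68.5 in APP-KI (log2 difference -0.57, 95% interval -1.37 to 0.23, adjusted p = 0.672).

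The remaining members had overlapping groups, and APP-KI replicate 4 was the lowest of the 6 libraries for each of them. Fcer1g was at 257, 301 and 278 in WT and at 119.5, 284 and 403 in APP-KI (log2 difference 0.06, 95% interval -0.68 to 0.80). Fcgr2b was at 302, 391 and 372 against 252, 373 and 485 (0.21, 95% interval -0.18 to 0.61), and Fcgr3 at 841, 968 and 888 against 463, 791 and 969 (-0.17, 95% interval -0.68 to 0.33). Fcgr4 was at 10.2, 16.0 and 16.3 against 1.22, 17.1 and 13.7. This last gene ran within APP-KI from the lowest of all 20 libraries to above every WT library.

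APP-KI replicate 4 is 1 of the 4 libraries with fewer than 14000 genes above 0. Without those 4, 27.9% of 12564 genes were called, and 4 of the 6 members among them, an alternative chosen after the data were seen. Fcgr1 (log2 difference -0.48, adjusted p = 0.00224) and Fcgrt (-0.66, adjusted p = 0.00101) were then lower in APP-KI. Fcer1g (0.34, adjusted p = 0.019) and Fcgr2b (0.33, adjusted p = 0.0135) were higher, whereas Fcgr3 was at 0.0066 (adjusted p = 0.963). Without APP-KI replicate 5 as well, which had the most genes above 0, a single APP-KI library was left. Fcgr1 (-0.36, adjusted p = 0.0202), Fcer1g (0.43, adjusted p = 0.0285) and Fcgrt (-0.75, adjusted p = 0.00491) still passed and Fcgr2b did not (0.34, adjusted p = 0.0622). That single library is assumed to vary like the other groups.

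**Figure D3:**
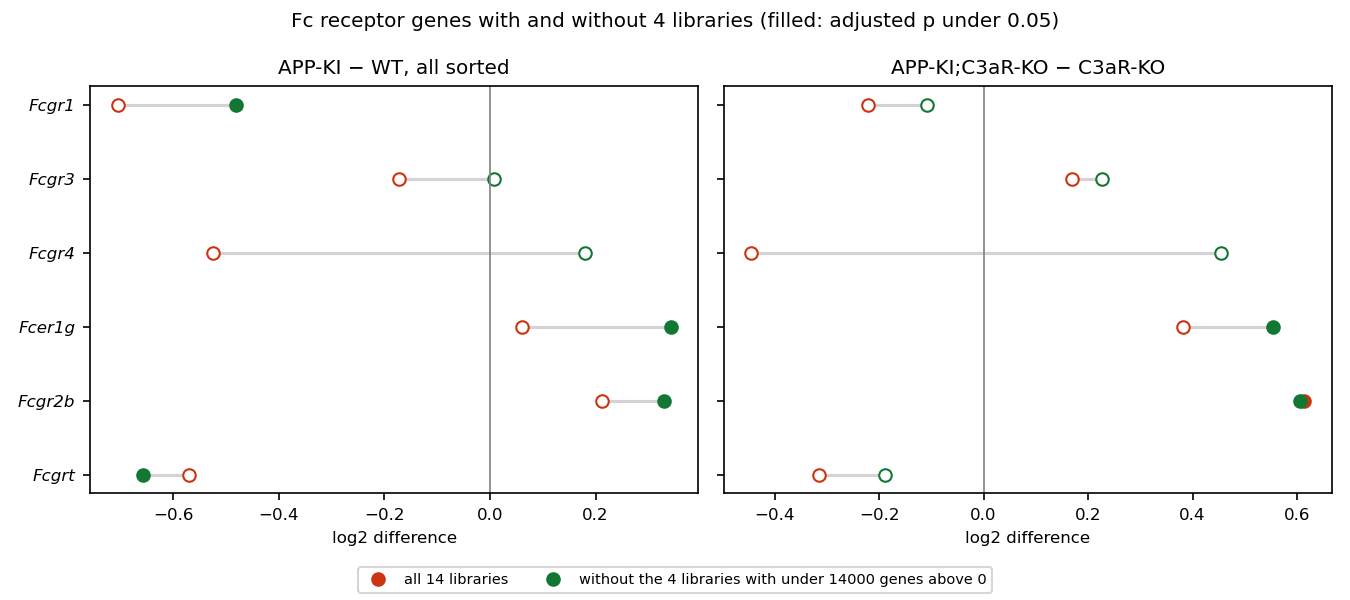
Log2 difference (horizontal axis) of each Fc receptor gene for APP-KI against WT (left) and APP-KI;C3aR-KO against C3aR-KO (right) in all 14 libraries sorted without the C3aR gate and without the 4 that held fewer than 14000 genes above 0; filled circles have an adjusted p under 0.05. Fcgr1, Fcer1g, Fcgr2b and Fcgrt become filled on the left, and Fcer1g on the right. On the right, C3aR-KO replicate 3 is the only C3aR-KO library left without the 4.

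Within either library series, read from the library numbers, the values rest on 3 libraries. Fcgr1 was lower in APP-KI in both, with a log2 difference of -1.09 in the series with the lower numbers and -0.35 in the other. Fcgrt was lower in both as well (-0.50 and -0.80). Fcer1g went in opposite directions, with -0.48 in the lower-numbered and 0.48 in the higher-numbered series, and the former contains APP-KI replicate 4.

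A further contrast of the knock-in was available on the C3aR-KO background, where APP-KI;C3aR-KO was set against C3aR-KO. Of the 6 members, only Fcgr2b passed the test, in a comparison that called 6.93% of 12405 genes (3.96% higher). Fcgr2b was at 197, 252 and 346 in C3aR-KO and at 278, 406, 522, 491 and 573 in APP-KI;C3aR-KO, and 1 library of the latter lay inside the range of the former. The difference was 1.53-fold, or 0.61 on the log2 scale (SE 0.16, 95% interval 0.26 to 0.97, adjusted p = 0.0367).

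This call was fragile. Leaving out any 1 of 10 libraries ended it, with adjusted p between 0.0528 and 0.121: WT replicates 4, 5 and 6, APP-KI replicate 6, C3aR-KO replicates 1 and 3, and APP-KI;C3aR-KO replicates 2, 3, 4 and 5. It was also lost without the filter (adjusted p = 0.0759), without the series term (0.0913) and with only the 2 groups in the fit (0.154), while the log2 difference stayed between 0.52 and 0.77 in all of these.

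Fcer1g was at 200.4, 146 and 279.6 in C3aR-KO and at 121, 309.6, 419, 403 and 425 in APP-KI;C3aR-KO. All but replicate 1 of the latter lay above the former, and the log2 difference was 0.38 (95% interval -0.28 to 1.04, adjusted p = 0.531). Without the 4 libraries with few genes above 0, it was 0.55 (adjusted p = 0.00507) and Fcgr2b 0.60 (adjusted p = 0.00187), where 31.3% of genes were called.

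Of the rest, Fcgr3 was at 755, 505 and 855 in C3aR-KO and at 528, 803, 974, 996 and 1076 in APP-KI;C3aR-KO (log2 difference 0.17), and Fcgr1 at 298, 222 and 319 against 152, 279.7, 298, 302 and 283 (-0.22). Both pairs of groups overlapped. Fcgrt was at 90.1, 27.8 and 84.4 against 22.2, 57.6, 73.9, 74.9 and 69.5 (-0.32). Fcgr4 was at 13.1, 9.92 and 10.3 against 1.65, 11.1, 12.8, 16.6 and 14.9 (-0.44). Its sign turned to 0.45 without the 4 libraries, which left a lone C3aR-KO library.

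The groups compared in the 3 contrasts of the knock-in share no library. Both contrasts without the gate come from 1 fit with a shared series term, so they are not separate estimates. The signs of the 3 are set side by side as a description. Fcer1g and Fcgr2b were higher in the knock-in in all 3, Fcgr1 and Fcgrt lower in all 3, and Fcgr3 and Fcgr4 were mixed. That makes 4 of 6 genes (66.7%) with 1 sign, against 6391 of the 12295 genes tested in all 3 (52%), and nothing particular to the family can be read from it. Without the series term, Fcer1g was at -0.21 for APP-KI against WT without the gate. Without APP-KI;C3aR-KO replicate 1, a library of the other contrast, it was at -0.014, so its sign there depends on the fit.

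Deletion of C3ar1 gave no call among the Fc receptor genes on either background. In C3aR-KO against WT and in APP-KI;C3aR-KO against APP-KI, 1 gene each was called, 0.00806% of 12405, and it was C3ar1 itself both times (log2 difference -2.39, adjusted p = 0.00339, and -1.95, adjusted p = 0.00972). The first of these calls was lost without WT replicate 4 and the second without APP-KI replicate 5 or 6.

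Without the knock-in, all 6 members had a negative log2 difference for C3aR-KO against WT. The median was -0.23 over the 6 and -0.03 over all 12405 genes tested. The share of all genes with a negative difference was not counted, and Fcgr4 and Fcer1g turned sign in some alternatives. Fcgr1, at 298, 222 and 319 in C3aR-KO, was below all 3 WT libraries, as for 9.31% of genes (log2 difference -0.31, 95% interval -0.86 to 0.23, adjusted p = 0.995). The others overlapped WT, with log2 differences of -0.54 for Fcgrt (-0.15 without C3aR-KO replicate 2 and -0.93 without C3aR-KO replicate 1), -0.26 for Fcgr2b, -0.21 for Fcgr3, -0.19 for Fcer1g and -0.01 for Fcgr4.

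With the knock-in, all 6 members overlapped between mice with and without C3ar1. The log2 differences were 0.17 for Fcgr1 (95% interval -0.31 to 0.66), 0.13 for Fcgr3 (-0.32 to 0.58), 0.13 for Fcer1g (-0.53 to 0.80), 0.15 for Fcgr2b (-0.21 to 0.50), -0.28 for Fcgrt (-0.99 to 0.42) and 0.07 for Fcgr4 (-1.26 to 1.41). The interaction, the effect of C3ar1 loss in APP-KI minus that in WT, was largest for Fcgr1 at 0.48 (95% interval -0.26 to 1.23), and no gene passed (limma, where the unadjusted p was under 0.05 for 111 positive and 92 negative genes, with 0 called by edgeR and 171 by DESeq2).

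The C3aR gate was compared with sorting without it in 12 WT and APP-KI libraries. All C3aR+ libraries belong to 1 library series, so gate, reporter line and series cannot be told apart here, and no gene of 12586 passed in either genotype or in the difference between them (limma and edgeR; DESeq2 called 50, 37 and 127). The unadjusted p of limma was under 0.05 for 126 higher and 426 lower genes in WT, 200 and 457 in APP-KI, and 836 and 644 for the difference.

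In WT, Fcer1g, Fcgr3 and Fcgr1 were lower in every library labelled C3aR+ than in every library sorted without the gate, as for 13.2% of genes. Their log2 differences were -0.65 (95% interval -1.32 to 0.02), -0.52 (-1.07 to 0.03) and -0.28 (-0.79 to 0.24). In APP-KI the groups overlapped for all 6, with log2 differences of 0.68 for Fcer1g, 0.50 for Fcgr3 and 0.40 for Fcgr2b. Without APP-KI replicate 4 these were 0.18, 0.19 and 0.15. The effect of the knock-in was thus more positive in C3aR+ cells by 1.33 for Fcer1g (95% interval 0.38 to 2.27, unadjusted p = 0.00961, adjusted p = 0.394) and by 1.02 for Fcgr3 (0.24 to 1.79, unadjusted p = 0.0139, adjusted p = 0.394). Without APP-KI replicate 4 the 2 values were 0.83 and 0.71 (adjusted p = 0.21 and 0.369), and without the 4 libraries of few genes above 0 and APP-KI replicate 5 they were 0.58 and 0.57. For Fcgrt it differed by -0.02 (-0.66 to 0.62). None of these differences passed the correction.

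Ratios between the genes within a library do not depend on library scaling. Their level depends on the gene length used, which for Fcgr2b is 5.79 kb over all exons and 3.54 kb in the longest coding transcript. That length is the same in every library, so it does not change the order of the libraries in a ratio of 2 genes. In a ratio to a sum of genes, the lengths weigh the terms of the sum and the order can change. Per kilobase, the activating Fcgr1 stood to the inhibitory Fcgr2b at 1.97 to 3.37 (median 2.23) in the 9 libraries without the knock-in and at 0.818 to 1.68 (median 1.28) in the 11 with it. These ranges do not overlap, across both sorts and both C3ar1 genotypes. C3aR-KO replicates 1 and 2, both with few genes above 0, mark the ends of the range without the knock-in. How many other pairs of genes separate the same libraries was not counted, so nothing particular to this pair can be read from the gap. Fcgr3 to Fcgr2b did not separate them, at 6.13 to 12.8 without and 6.12 to 8.50 with the knock-in. Fcgr1 to Fcgr3 was between 0.220 and 0.466 without and between 0.120 and 0.233 with it, overlapping narrowly.

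The signalling chain was also set against the receptors that need it. Fcer1g over the sum of Fcgr1, Fcgr3 and Fcgr4 was 0.374 to 0.513 (median 0.439) without the knock-in and 0.381 to 0.763 (median 0.656) with it. The low knock-in libraries were APP-KI replicate 4 (0.430), APP-KI;C3aR-KO replicate 1 (0.381) and C3aR+ APP-KI replicate 3 (0.494). These ratios were looked at after the values of the genes were known and are a description without a test.

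**Figure D4:**
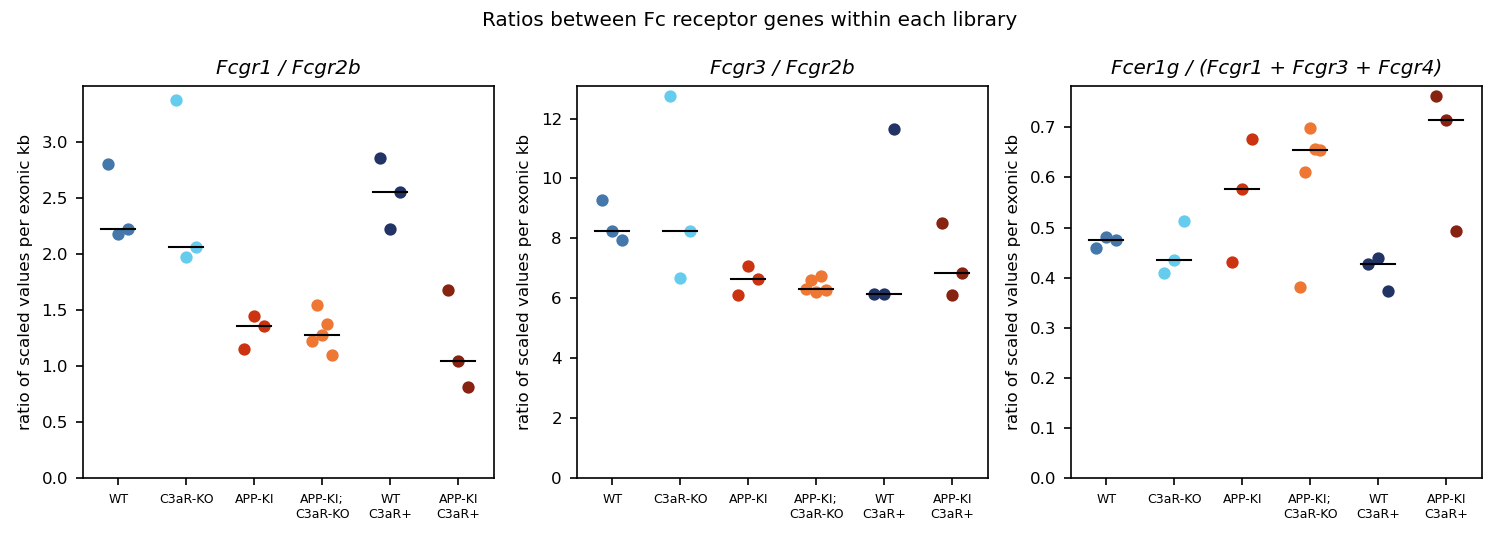
Ratio of scaled values per exonic kilobase (vertical axes, from 0) between Fc receptor genes in each of the 20 libraries, by condition, with bars at the group median. Fcgr1 over Fcgr2b is at or below 1.68 in all 11 knock-in libraries and at or above 1.97 in the 9 others, while the other ratios overlap.

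Border macrophages, which also carry Fc receptors, moved with the knock-in as well. Their 7 markers summed to between 179 and 401 with the knock-in and to between 363 and 1200 without it, and endothelial markers to between 78.5 and 325 against between 40.9 and 92.3. Markers of monocytes and neutrophils summed to between 31.0 and 772, of B and plasma cells to between 3.37 and 71.3, and of T and NK cells to between 0.582 and 36.9. Astrocyte (208 to 399), oligodendrocyte (107 to 227) and neuron (0.0452 to 16.1) markers completed the lists. Their part in the values of the Fc receptor genes was not tested.

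The genes around the receptors were described from 4 lists of 49 genes, of which 40 were tested in C3aR+ cells. There, 10 were higher and 14 lower in APP-KI, where 13% of all genes tested were called higher and 9.7% lower. Their median log2 difference was -0.34 against -0.17 over all genes. With median ratio scaling the lower calls of all genes went from 1195 to 605, and the lists were not counted again under that scaling. The list of partner chains and adaptors rose in 3 of 3 tested (Tyrobp, B2m and Hcst), with Tyrobp, the adaptor of TREM2 and related receptors, at 1.95 (adjusted p = 6.54e-05).

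The activating signalling list, which acts downstream of the ITAM, was split, with 5 of 23 higher and 11 lower. The Src-family kinases went both ways, as Fgr rose by 2.15 on the log2 scale (adjusted p = 6.45e-05) and Fyn by 1.53, while Src fell by 0.60. Syk, the kinase that binds the phosphorylated ITAM, fell by 0.68 (adjusted p = 0.00242), and the phospholipase Plcg1 by 0.80 (adjusted p = 0.00548). The adaptors Lat2 (0.97), Sh3bp2 (0.87) and Gab2 (0.55) were higher. Fyn, Src and these adaptors are named with their values in view, as is Inppl1.

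Of the inhibitory signalling list, 2 of 9 were higher and 3 lower. The ITIM-binding phosphatases Ptpn6 (SHP-1, 0.51, adjusted p = 0.00735) and Inppl1 (SHIP2, 0.87, adjusted p = 0.00182) rose, and the adaptor Dok3 fell by 1.67 (adjusted p = 0.00059). Inpp5d (SHIP1), the main phosphatase partner of Fc gamma RIIb, was at -0.41 and missed the threshold (adjusted p = 0.0504). Of 13 other Fc receptors and homologs, 5 were tested and 0 called. Fcrls, a microglial homolog with a mean scaled value of 1467, was the most abundant of them (log2 difference 0.42, adjusted p = 0.418).

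The other contrasts of the knock-in had fewer calls in these lists. In microglia sorted without the gate, 5 of 40 were higher and 10 lower (4.14% of all genes were called), led by Fgr (log2 difference 1.91, adjusted p = 0.00427) and Dok3 (-1.57, adjusted p = 0.00996), and on the C3aR-KO background 5 were higher and 11 lower (6.93% of all genes), again with Fgr (2.17, adjusted p = 0.000424) and Dok3 (-2.06, adjusted p = 0.00034). Tyrobp passed in both (1.16, adjusted p = 0.0433, and 1.83, adjusted p = 0.000559). Neither deletion of C3ar1 nor the C3aR gate gave a call in these lists.

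**Figure D5:**
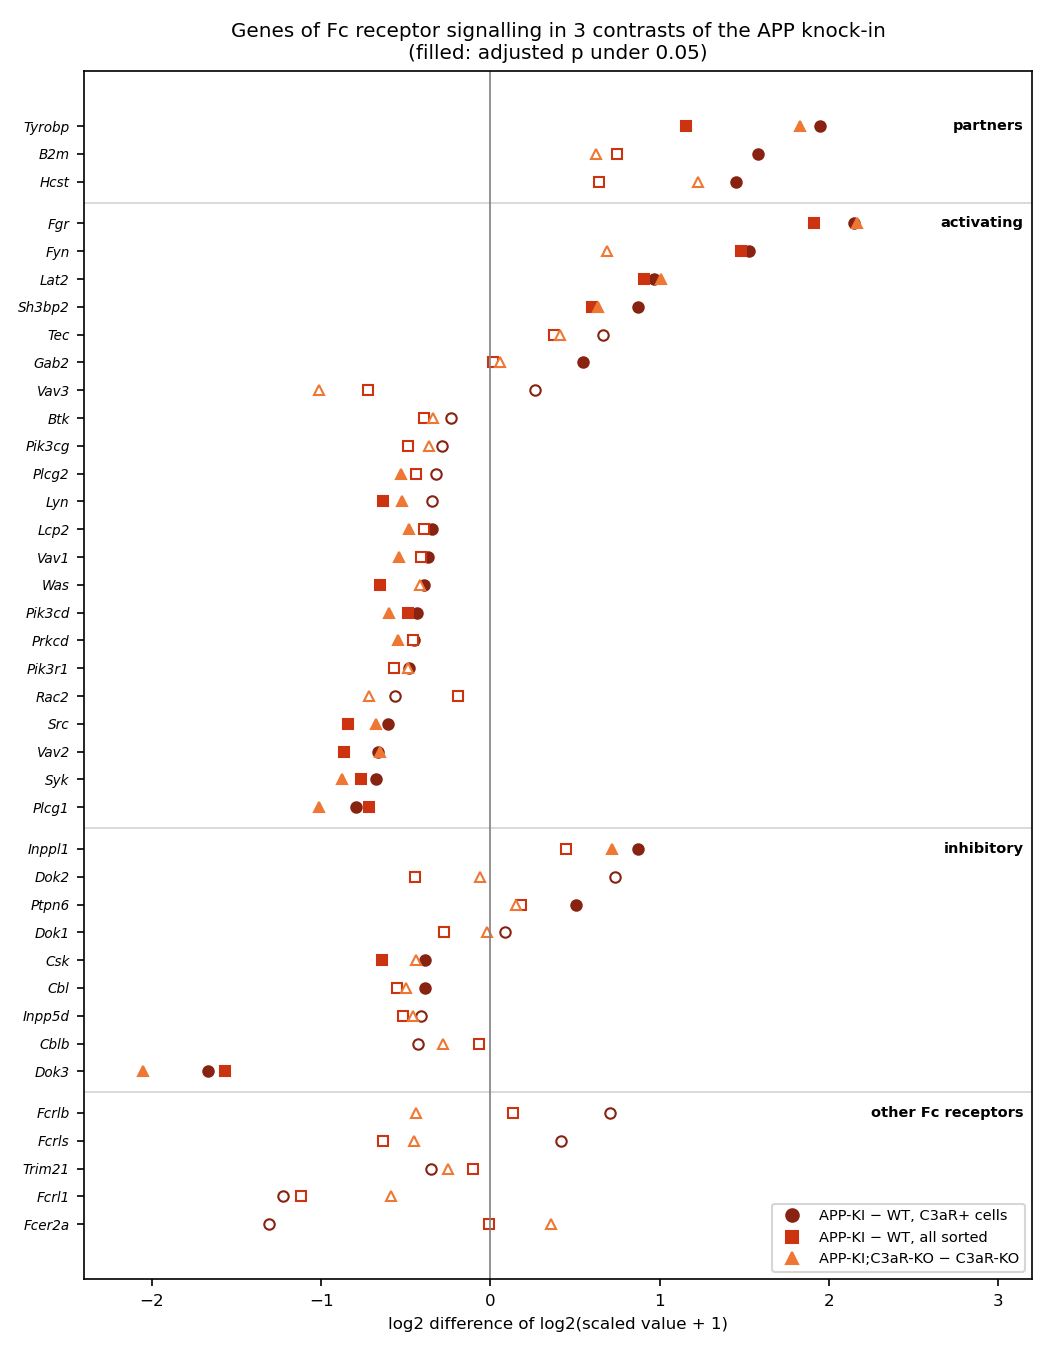
Log2 difference (horizontal axis) of the tested genes of Fc receptor signalling in the 3 contrasts of the APP knock-in, by list; filled symbols have an adjusted p under 0.05. Tyrobp and Fgr are filled to the right of 0 and Dok3, Syk and Plcg1 to the left in all 3.

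Over the 20 libraries, the genes most like each member in Pearson correlation of log2 values were named by rule among 10129 genes. They were Vhl (0.96), Zfp758 (0.95) and Cx3cr1 (0.94) for Fcgr1, and Lamp1 (0.98), Eif5a (0.97) and Ftl1-ps1 (0.97) for Fcer1g. For Fcgr3 they were Tpp1 (0.96), Lmf2 (0.95) and Mapk3 (0.95), and for Fcgr2b Ctnna1 (0.95), Acly (0.94) and Dap (0.94). Fcgr4 was nearest to Ap3s2 (0.92), Slc25a51 (0.92) and Adprhl2 (0.90), and Fcgrt to Zfp955a (0.93), Limd2 (0.92) and Mon1b (0.92).

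Among the members themselves, Fcgr3 and Fcer1g were the most alike (0.91), followed by Fcer1g and Fcgr2b (0.83). Fcgr1 and Fcgr2b were hardly alike (0.18). The points share library depth and composition and the same groups, so these are descriptions of the 20 libraries.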

How the data were processed

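RNA-seq of 20 libraries of sorted mouse microglia was analysed. According to the authors, libraries were made with a SMARTer total RNA kit with molecular identifiers, and reads were aligned to mm10 with TopHat. The submitters' processing notes also name cutadapt, featureCounts and DESeq2. Whether identifiers were collapsed is not given in the sources used here. The authors deposited a signal under the name FPKM: the reads of a gene over the 75th percentile of reads in its library, with no gene length, and whole reads were recovered for 100% of values (tolerance 0.01). Depth is given in the report, and intervals cover the spread between libraries.

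Values were multiplied by 35.1 (1 read is then worth 0.0132 to 0.0785). Genes with a mean of at least 1 were tested in limma 3.58.1 after log2 transformation with a pseudocount of 1 (R 4.3.3, mean-variance trend, Benjamini-Hochberg adjustment over all genes). Log2 differences are on this scale, which understates the change of low genes. The 6 C3aR+ libraries were fitted alone, the 14 others together with a term for library series, and the gate in 12 libraries without that term. Counting tests were edgeR 4.0.16 and DESeq2 1.42.0 on recovered reads. The fits were tested on simulated data. Tables and plots were made with Python 3.11.15, pandas 2.3.3, numpy 2.4.6 and matplotlib 3.10.9. Positions and sequences came from GENCODE M21 on GRCm38.

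1 gene of the signalling lists is counted but not reported by itself here. The members, the gene lists and the markers were chosen with earlier results of these data known. Named were all members, the 3 largest rises and falls of the 4 pathway lists in a comparison, a few fixed genes of these lists, and the 3 genes most like each member among those whose mean reached 5. Alternatives were a pseudocount of 0.1, no filter, median ratio scaling, the counting tests, no series term, only the compared groups, a replicate block, each library left out, and, added after seeing the data, the libraries with few or many genes above 0 left out.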

Additional observations from a re-analysis of the deposited data

Results flagged for a closer look

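Fcgr1 in APP-KI;C3aR-KO replicate 1 was at a scaled value of 152, while the other 4 libraries of that group lay between 279.7 and 302. The gap to the nearest library was 0.852 of the whole range, above the critical value of 0.71 for 5 samples. Chance marks about 1 in 20 such groups. The library was 1 of the 4 with fewer than 14000 genes above 0.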

How the results depend on the processing

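Over the 6 Fc receptor genes and 9 comparisons, 1014 of the member values kept their direction and side of the threshold under an alternative, 24 lost a call, 13 gained one and 65 turned direction. In C3aR+ cells (APP-KI against WT) no member turned direction.

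Number of members called. Without the filter on low values it fell to 2 in C3aR+ cells and to 0 for APP-KI;C3aR-KO against C3aR-KO, which was also at 0 without the series term and with only the 2 groups. Without the 4 libraries with few genes above 0 it was 4 for APP-KI against WT and 2 for APP-KI;C3aR-KO against C3aR-KO, and without APP-KI replicate 5 too it was 3 and 3, with Fcer1g also called for C3aR+ against all sorted in WT (1 member, log2 difference -0.65, adjusted p = 0.0418). With each library left out in turn it ran from 2 to 4 in C3aR+ cells and from 0 to 1 for APP-KI;C3aR-KO against C3aR-KO. Without the 4 libraries, C3aR-KO replicate 3 was the lone C3aR-KO library, here and in the counts of all genes below.

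Number of all genes called. DESeq2 gave 1265 for APP-KI against WT without the gate, 288 for C3aR-KO against WT, 345 for C3ar1 deletion in the knock-in, 1691 for APP-KI;C3aR-KO against C3aR-KO, 171 for the interaction, and 50, 37 and 127 for the gate in WT, the gate in APP-KI and their difference. Without the 4 libraries it was 3510, 2 and 3936 for APP-KI against WT, C3aR-KO against WT and APP-KI;C3aR-KO against C3aR-KO and 12 for the gate in WT; without APP-KI replicate 5 too it was 1904 for APP-KI against WT, 4158 for APP-KI;C3aR-KO against C3aR-KO and 12 for the gate. Deletion of C3ar1 in the knock-in gave 2 without the filter and 0 with only the 2 groups, and APP-KI;C3aR-KO against C3aR-KO had 401 with only the 2 groups. With each library left out the counts ran from 1777 (without C3aR+ WT replicate 3) to 2528 in C3aR+ cells, from 218 (without WT replicate 4) to 837 (without APP-KI;C3aR-KO replicate 1) for APP-KI against WT, from 614 to 1397 (without APP-KI;C3aR-KO replicates 4 and 1) for APP-KI;C3aR-KO against C3aR-KO, from 0 (without WT replicate 4, where C3ar1 lost its call) to 21 (without C3aR-KO replicate 3) for C3aR-KO against WT, from 0 (without APP-KI replicate 5 or 6, where C3ar1 lost its call) to 1 for its deletion in the knock-in, and from 0 to 12, 0 to 3 and 0 to 2 for the gate in WT, the gate in APP-KI and their difference.

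Log2 differences that turned direction, uncalled outside fits in which a lone library stood for a group. For APP-KI against WT without the gate, Fcer1g was at -0.21 without the series term and with only the 2 groups, and without the 4 libraries Fcgr3 was at 0.0066 (0.029 without APP-KI replicate 5 too) and Fcgr4 at 0.18. Fcgr4 for C3aR-KO against WT was at 0.031 with a pseudocount of 0.1. For deletion in the knock-in (APP-KI;C3aR-KO against APP-KI), Fcgr4 was at -0.15 by edgeR, -0.16 by DESeq2 and -0.22 without the 4 libraries, Fcgrt at 0.034 without them and 0.12 without APP-KI replicate 5 too, and Fcgr1 then at -0.013. For the interaction, Fcgr4 was at -0.087 by edgeR and -0.11 by DESeq2. For APP-KI;C3aR-KO against C3aR-KO, Fcgr4 was at 0.45 without the 4 libraries and 0.50 without APP-KI replicate 5 too. In both of these fits C3aR-KO replicate 3 was the lone C3aR-KO library. For the gate in APP-KI, Fcgr1 was at -0.17 and Fcgr4 at -0.31 without the 4 libraries, and without APP-KI replicate 5 too Fcgr1 was at -0.31, Fcgr4 at -0.16, Fcer1g at -0.070 and Fcgr2b at -0.044. For the difference of the knock-in between gate and no gate, Fcgrt was at 0.041 by edgeR, 0.078 by DESeq2 and 0.086 with median ratio scaling, and Fcgr1 at -0.034 without those 5 libraries. The cause of these turns was not tested.

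With each library left out in turn, the log2 differences that turned, or were at 0.00, ran as follows, again uncalled. For APP-KI against WT without the gate they were -0.33 to 0.036 for Fcgr3, -0.18 to 0.40 for Fcer1g and -1.19 to 0.24 for Fcgr4, lowest without APP-KI replicate 5 and highest without APP-KI replicate 4. For C3aR-KO against WT they were -0.26 to 0.52 for Fcgr4 and -0.32 to 0.15 for Fcer1g. For deletion in the knock-in they were -0.094 to 0.35 for Fcgr1, -0.086 to 0.29 for Fcgr3, -0.71 to 0.76 for Fcgr4, -0.21 to 0.44 for Fcer1g, -0.0027 to 0.27 for Fcgr2b and -0.48 to 0.016 for Fcgrt. For APP-KI;C3aR-KO against C3aR-KO they were -0.72 to 0.085 for Fcgrt and -0.96 to 0.077 for Fcgr4, and for the interaction -0.61 to 0.73 for Fcgr4, -0.059 to 0.70 for Fcer1g and -0.10 to 0.63 for Fcgrt. For the gate in APP-KI they were -0.17 to 0.42 for Fcgr1 and -0.31 to 1.20 for Fcgr4, and for the difference of the knock-in between gate and no gate -0.15 to 0.20 for Fcgrt.

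Whether the replicate numbers pair the libraries is not given in the labels. Between libraries with the same number, the correlation of deviations from the group means across genes was 0.02, 0.04 and -0.01 in C3aR+ cells. For APP-KI against WT without the gate it was 0.25, 0.09 and 0.11, and between different numbers it ran from -0.22 to 0.20. It was -0.31 and 0.03 for deletion in the knock-in, and 0.00, 0.07 and 0.22 for APP-KI;C3aR-KO against C3aR-KO. Groups this small do not decide the question. With the replicate number as a block, Fcgr2b in C3aR+ cells had an adjusted p of 0.0529 (log2 difference 0.78). For APP-KI against WT without the gate the block called 1 member, Fcgrt at -0.81, with Fcer1g at -0.21. For deletion in the knock-in the block kept only replicates 4 and 5 of each group. Both APP-KI libraries there belong to the lower-numbered series and both APP-KI;C3aR-KO libraries to the other, so genotype and series cannot be told apart. APP-KI replicate 4 had few genes above 0 and APP-KI replicate 5 the most. That run called 1 member, Fcer1g at 1.16, and 459 genes in all, with Fcgrt at 0.41. For APP-KI;C3aR-KO against C3aR-KO the block called 0 members and 151 genes, with Fcgr2b at 0.59. C3aR-KO and WT share no number, so no block could be made there, nor for the interaction and the gate.

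Fcgr4, with 58 to 1214 reads, and groups of 3 libraries limit the precision of these values.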
